A study of Sus scrofa with 2 samples.

Results

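Dividing cells made up 311 of the 25138 barcodes of a single-cell RNA sequencing series of pig endometrium. They numbered 152 of 15093 barcodes in library 2 and 159 of 10045 barcodes in library 1. The barcodes were chosen by their raw counts of 8 genes of cell division: at least 4 of the 8 had a unique molecular identifier (UMI, a counted RNA molecule). The genes were CENPF, UBE2C, PBK, KIF11, TPX2, KIF23, TK1 and DLGAP5. The levels of the 8 genes in these barcodes are therefore a description of the choice and not a finding.

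The series compared the endometrium of 2 Yorkshire sows, both 3 years old and both artificially inseminated, 1 at day 7 and 1 at day 13 of gestation, the days that the design text calls pre-receptive and receptive. Tissue was taken from the uterine horns, digested with collagenase and a neutral protease, passed through a filter, treated to lyse red blood cells and loaded for droplet-based 3′ sequencing. Each sow gave 1 library, and the sample labels used here tie neither day to a library, so the 2 libraries are called by the numbers in their titles and no stage is given to either. With 1 library per group there is no test between libraries: all intervals below are 95% intervals that cover counting error only.

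A cell that divides copies its DNA in S phase and separates the copies in mitosis, and many genes of these steps are transcribed mainly around the time they are used. TK1 makes thymidine monophosphate for DNA synthesis. KIF11 pushes the spindle poles apart, TPX2 nucleates spindle microtubules and activates Aurora A, DLGAP5 stabilises kinetochore fibres, CENPF binds the kinetochore, and KIF23 bundles the spindle midzone before the daughter cells part. UBE2C is the ubiquitin-conjugating enzyme of the anaphase-promoting complex, and PBK is a mitotic kinase. The endometrium of early pregnancy holds epithelium of the surface and glands, stromal fibroblasts, blood and lymph vessels, muscle and leukocytes, any of which can divide.

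The libraries stood apart in depth and RNA content. Library 2 held 87514969 UMIs and library 1 held 45388759. Ribosomal protein genes took 6.22% of the UMIs of dividing barcodes in library 2 and 14.8% in library 1, and 5.58% and 14.2% in the other barcodes of the same libraries. The libraries shared 48 barcode sequences, and 0 of the dividing barcodes were among them. Dividing barcodes were deeper than the rest, which the rule favours: in library 2 their UMIs ran from 2065 to 34160 with a median of 11895.5, against a median of 4303 in other barcodes. In library 1 they ran from 932 to 96646 with a median of 9837, against 3393 in other barcodes. The median number of genes per dividing barcode was 4235 in library 2 and 3501 in library 1.

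Dividing barcodes were 1.01% of library 2 (exact Clopper-Pearson interval 0.854 to 1.18%) and 1.58% of library 1 (1.35 to 1.85%). Because depth enters the rule, every barcode was also thinned to a fixed number of UMIs. At 2000 UMIs, 63 of 12023 barcodes of library 2 passed (0.524%), against 1.26% of the same barcodes before thinning. In library 1, 79 of 8080 passed (0.978%), against 1.89% before thinning. At 1000 UMIs the shares were 0.191% in library 2 (27 barcodes, 0.126 to 0.277%) and 0.337% in library 1 (32 barcodes, 0.231 to 0.475%), and these intervals overlap. The share was lower in library 2 than in library 1 at each depth. The libraries also differed in their mix of cell types, given below, which these shares do not account for.

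**Figure D1:**
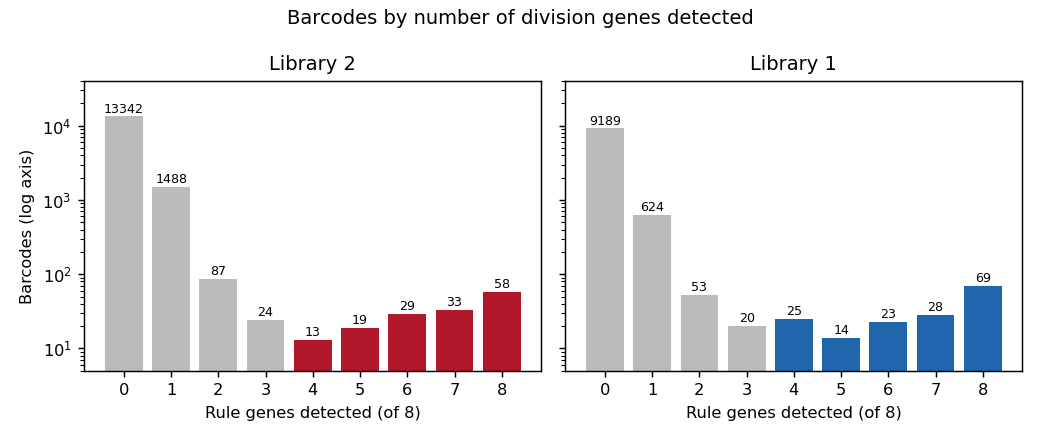
Number of barcodes (log axis) by how many of the 8 rule genes had a UMI, in library 2 (left) and library 1 (right); grey bars lie under the minimum of 4 genes and coloured bars are the dividing barcodes. The counts fall to 13 barcodes at 4 genes in library 2 and to 14 at 5 genes in library 1, and are higher again at 8 genes, with 58 and 69 barcodes.

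Detection of the 8 genes was not evenly spread over barcodes. In library 2, 13342 barcodes had none of them, 1488 had 1, 87 had 2 and 24 had 3, while 13, 19, 29, 33 and 58 barcodes had 4, 5, 6, 7 and 8. In library 1, 9189 had none, 624 had 1, 53 had 2 and 20 had 3, while 25, 14, 23, 28 and 69 had 4 to 8. Barcodes with all 8 genes thus formed the most common class of dividing barcode in both libraries. At the minimum of 4 genes lay 13 barcodes of library 2 and 25 of library 1, the latter more than at 5 or 6 genes. Just inside the threshold, barcodes with 4 genes had a median of 13346 UMIs in library 2 and 5799 in library 1. Just outside it, barcodes with 3 genes had 8483 UMIs in library 2 and 8677.5 in library 1.

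The rule genes had lower levels outside the chosen barcodes, which follows from the choice. They were not absent there. In library 2, TK1 had 537 UMIs in dividing and 758 in other barcodes, or 265 and 8.87 per 1000000 UMIs, and KIF23 had 514 and 439 UMIs. UBE2C stood at 532 CPM (counts scaled to a total of 1000000 UMIs, from UMIs summed over the group) in dividing barcodes of library 2, against 1.13 CPM in other barcodes, with a median of 4 and a maximum of 46 UMIs per dividing barcode. In library 1 it stood at 539 CPM in dividing barcodes, against 2.75 CPM in the others, with a median of 3 and a maximum of 56 UMIs. CENPF had 305 CPM in dividing barcodes of library 2 (exact Poisson interval 282 to 330) and 538 CPM in those of library 1 (507 to 569), the rule gene whose level differed most between the libraries. The median barcode held 3 CENPF UMIs in library 2 and 4 in library 1, and the highest held 22 and 39.

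Among the spindle genes, TPX2 had 217 CPM in dividing barcodes of library 2 and 345 CPM in those of library 1, with maxima of 13 and 21 UMIs per barcode. KIF11 was at 218 CPM in library 2 and 243 CPM in library 1, KIF23 at 254 and 220 CPM, and DLGAP5 at 217 and 220 CPM, each with a median of 2 or 3 UMIs per dividing barcode. These 4 genes were detected in 79.9 to 91.8% of the dividing barcodes of either library. The kinase gene PBK stood at 182 CPM in dividing barcodes of library 2 and at 252 CPM in those of library 1, and was detected in 75.7% and 84.9% of dividing barcodes. TK1, the S-phase member, was at 265 CPM in library 2 and 270 CPM in library 1 and was detected in 81.6% and 81.1%.

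A single rule gene was a weaker mark than the set. Of the 1488 barcodes of library 2 with only 1 rule gene, 639 held TK1 and 329 held KIF23. Free RNA in droplets can place a UMI in a cell that does not express a gene, and ciliated epithelial cells, which are generally past division, were taken for comparison. In dividing barcodes of library 2, at a median of 11895.5 UMIs, KIF23, TK1, KIF11 and PBK were detected in 75.7 to 84.2%. Among the 428 ciliated barcodes of library 2 that were not dividing, at a median depth of 5041 UMIs, KIF23 was detected in 34 (7.94%), TK1 in 9 (2.10%), KIF11 in 8 (1.87%) and PBK in 0, which allows a share of up to 0.701% (3 counts of the total). In all barcodes of library 2 that were not dividing, KIF23 was detected in 2.52%, TK1 in 4.71%, KIF11 in 0.736% and PBK in 0.589%. These shares differ between ciliated and all such barcodes, and the source of the UMIs was not tested. Library 1 held only 28 such ciliated barcodes, with 0 or 1 detecting each rule gene.

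Genes of division that the rule did not use bear on the label. Among dividing endothelial barcodes, CDK1, the kinase that starts mitosis, stood at 333 CPM in library 2, against 8.98 CPM in other endothelial barcodes. In library 1 it stood at 64.7 CPM, against 1.53 CPM in the others. CCNB1, its cyclin partner, stood at 114 CPM against 0.794 CPM in library 2 and at 139 CPM against 1.19 CPM in library 1. The usual histological marker MKI67 and the topoisomerase gene TOP2A have no row under those symbols in the files and are not analysed here.

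Lineage was read from marker genes of 10 cell types, of which 120 of 181 have a symbol in the files. Each barcode's summed marker level was scaled to that of the barcodes that carry the lineage most clearly, and a lineage was given where it led the next one at least 2-fold. By this measure the endothelium of blood vessels was the largest lineage of dividing barcodes in both libraries. It gave 79 of 152 in library 2 (52.0%, interval 43.7 to 60.1%) and 90 of 159 in library 1 (56.6%). Endothelial barcodes were far fewer among all barcodes, 2958 of 15093 in library 2 and 2872 of 10045 in library 1.

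Within the endothelium, 2.67% of barcodes were dividing in library 2 (2.12 to 3.32%) and 3.13% in library 1 (2.53 to 3.84%), and these intervals overlap. The summed level of the 8 rule genes over all endothelial barcodes, which needs no threshold, was 171 CPM in library 2 (165 to 177) and 281 CPM in library 1 (272 to 290). Thinned to 2000 UMIs, 37 of 2745 endothelial barcodes were dividing in library 2 (1.35%) and 54 of 2425 in library 1 (2.23%). The lineage was given by summed markers, so the markers shown here and for the other lineages describe the assignment and do not check it. PECAM1, a junctional adhesion molecule of endothelium, was found in 77 of 79 dividing endothelial barcodes of library 2, with 0 to 35 UMIs and a median of 7, and in 88 of 90 of library 1, with 0 to 45 UMIs and a median of 9. EGFL7, a secreted endothelial factor, was found in 78 of 79 and 90 of 90, and the endothelial transcription factor gene SOX18 in 75 and 86. CLDN5 was found in 48 of 79 and 54 of 90, ERG in 72 and 58, and VWF in 16 of 79 in library 2 and 0 of 90 in library 1. Other endothelial barcodes also had less of both in library 1. VWF was at 35.9 CPM in those of library 2 and 0.339 CPM in those of library 1, and ERG at 710 and 114 CPM.

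Epithelium was where the libraries differed most. In library 2, 7 of 4686 epithelial barcodes were dividing (0.149%, 0.0601 to 0.308%). In library 1, 21 of only 206 were (10.2%, 6.42 to 15.2%), and epithelium was 4.61% of the dividing barcodes of library 2 and 13.2% of those of library 1. Lineage read from the number of markers detected gave 0.658% (1 barcode) and 5.03% (8 barcodes). The doublet caller described below marked 3 of the 7 dividing epithelial barcodes of library 2 (42.9%), against 10.1% of its other epithelial barcodes. In library 1 it marked 2 of the 21 (9.52%), against 13.0% of the others. Depth differed too: other epithelial barcodes had a median of 4060 UMIs in library 2 and 9874 in library 1. At 2000 UMIs per barcode the shares were 0.0312% (1 of 3210) in library 2 and 3.76% (7 of 186) in library 1. The summed rule-gene level over all epithelial barcodes was 15.6 CPM in library 2 (14.3 to 17.1) and 280 CPM in library 1 (263 to 298). The share, the thinned share and the CPM are read from the same 8 genes and are not independent of each other. Whether the 206 epithelial barcodes of library 1 are the same kind of epithelium as the 4686 of library 2 was not tested.

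Inside library 1 the comparison of epithelium with endothelium did not hold across measures. The unthinned share of dividing barcodes was 10.2% in epithelium and 3.13% in endothelium, but the summed rule-gene level was 280 CPM in epithelium and 281 CPM in endothelium, so no order is read from the shares. Dividing epithelial barcodes carried less of the rule genes per UMI, 842 CPM in library 2 and 1476 CPM in library 1, than dividing endothelial barcodes, which carried 2689 CPM in library 2 and 3473 CPM in library 1. They were also deeper, with medians of 20378 and 18549 UMIs, against 10001 and 9039 in dividing endothelial barcodes of libraries 2 and 1. A deeper barcode can pass the rule at a lower CPM of the rule genes, so no order of the lineages is read from these levels. One dividing epithelial barcode of library 1 held 96646 UMIs, 16.1% of all UMIs of the 21.

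Of the 17 epithelial markers with a symbol, some were found in most of these barcodes and some in few or none. SPINT2, a membrane-bound protease inhibitor, was found in 7 of 7 dividing epithelial barcodes of library 2, with 18 to 95 UMIs and a median of 39, and in 21 of 21 of library 1, with 3 to 133 UMIs and a median of 15. The tight-junction gene CLDN7 was found in 7 of 7 and 17 of 21, and the keratin genes KRT8 and KRT18 in 6 and 7 of the 7 and in 18 and 17 of the 21. PAX8, a transcription factor of Müllerian epithelium, was found in 7 of 7 in library 2 and in 5 of 21 in library 1. Other epithelial barcodes differed the same way, with 678 CPM of PAX8 in library 2 and 7.36 CPM in library 1. MUC1 was found in 1 of 7 and 1 of 21, and CLDN8 and CDH16 were at 0 in all dividing epithelial barcodes.

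The remaining lineages gave small numbers. Plasma cells, the antibody-secreting cells, had 6 dividing of 84 barcodes in library 2 (7.14%) and 8 of 66 in library 1 (12.1%). The joining-chain gene JCHAIN had 40 to 942 UMIs in these 6 barcodes, with a median of 470, and 327 to 1391 in the 8, with a median of 667.5. Their depth was again high, with medians of 18810 UMIs in library 2 and 21684.5 in library 1, and 0 plasma cell barcodes passed the rule in either library once thinned to 2000 UMIs. T or NK cells had 6 dividing of 501 in library 2 (1.20%) and 2 of 268 in library 1 (0.746%). KLRK1, an activating receptor of cytotoxic lymphocytes, was found in 6 of 6 and 2 of 2. It stood at 1423 CPM in the 6, against 2683 CPM in other T or NK barcodes, and at 559 CPM in the 2, against 1346 CPM. In the 2 barcodes of library 1, 8 of the 16 markers of the lineage were at 0, CD3D among them.

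Macrophages, monocytes or dendritic cells had 3 dividing of 391 barcodes in library 2 (0.767%) and 3 of 151 in library 1 (1.99%). The complement gene C1QB had 13, 21 and 62 UMIs in the 3 barcodes of library 2 and 0, 17 and 27 in those of library 1, or 4905 and 1114 CPM, against 2814 and 5652 CPM in other barcodes of the lineage. The Fc receptor gene FCGR3A had 3, 5 and 14 UMIs in library 2 and 17, 78 and 88 in library 1. B cells had 1 dividing of 102 in library 2, and library 1 held 5 B cell barcodes, of which 0 were dividing. Taking the immune lineages as one, 16 of 1078 barcodes were dividing in library 2 (1.48%) and 13 of 490 in library 1 (2.65%).

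Fibroblasts were a large lineage with few dividing barcodes, and muscle held somewhat more. Stromal fibroblasts had 3 dividing of 2487 barcodes in library 2 (0.121%) and 6 of 2706 in library 1 (0.222%), and the collagen gene COL1A1 had 27 to 224 UMIs in the 3 and 60 to 282 in the 6. All 3 in library 2 and 3 of the 6 in library 1 were called doublets, and without called doublets the shares were 0% in library 2 and 0.122% in library 1. Smooth muscle or pericytes had 9 of 719 in library 2 (1.25%) and 8 of 1643 in library 1 (0.487%), with 14 to 165 UMIs of ACTA2, smooth muscle actin, in the 9 and 3 to 73 in the 8. Summed over all barcodes of the lineage, the rule genes were at 134 CPM in library 2 and 64.6 CPM in library 1 in muscle or pericytes, and 35.9 and 25.9 CPM in fibroblasts. Ciliated epithelium had 1 dividing barcode in each library and lymphatic endothelium 1 of 52 in library 2, and all 3 of these were called doublets by the caller described below. The ciliated one of library 1 had 0 UMIs of CCDC78, CFAP299, SPAG6 and ZMYND10. Lymphatic endothelium of library 1 had 0 of 129, which allows a share of up to 2.33% (3 counts of the total).

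**Figure D2:**
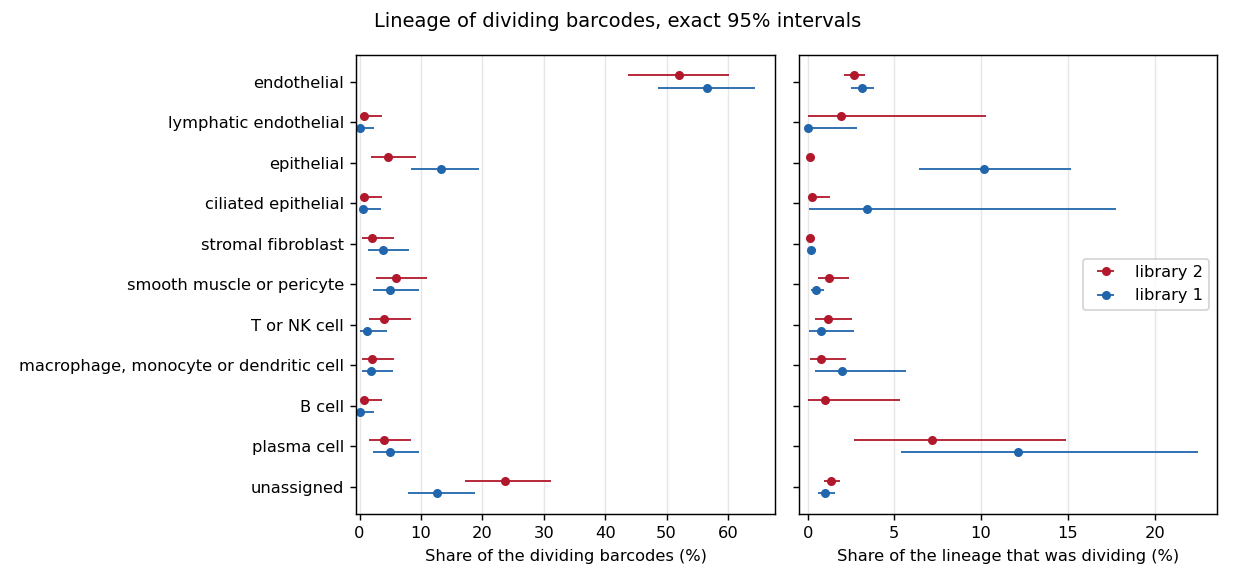
Share of the dividing barcodes that each lineage gave (left, %) and share of each lineage's barcodes that were dividing (right, %), in library 2 (red, upper point of each pair) and library 1 (blue), with exact 95% intervals for counting error. Endothelium gives 52.0% and 56.6% of dividing barcodes, and the epithelial share dividing is 0.149% in library 2 and 10.2% in library 1; lineages with under 20 barcodes are left out on the right.

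In library 2, 36 of the 152 dividing barcodes had no leading lineage, and in library 1, 20 of 159. Of the 36, 29 carried 2 or more lineages at 0.3 or more of their usual marker level: 11 carried epithelial and endothelial markers, 7 endothelial and muscle markers, and 6 endothelial and stromal markers, with some barcodes in more than 1 pair. Of the 20 in library 1, 8 carried 2 or more lineages, 5 of them endothelial and stromal. A doublet caller (Scrublet) marked 30 of the 36 and 7 of the 20. It marked 53 dividing barcodes of library 2 in all (34.9%), against 16.0% of the other barcodes, and 16 of library 1 (10.1%), against 11.3% of the others. Among dividing endothelial barcodes it marked 10 of 79 in library 2 and 2 of 90 in library 1. Called doublets were kept, and without them 99 dividing barcodes stayed in library 2 (0.783%), of which 69.7% were endothelial.

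Markers of further cell types were low in dividing barcodes. Erythroid genes had 0 UMIs in both libraries, neutrophil genes 1 in library 2 and 4 in library 1, and Schwann cell genes 2 and 3. Of the mast cell list, GATA2, which endothelium also expresses, held 99.1% of 112 UMIs in library 2 and 89.3% of 197 in library 1. Genes of the conceptus trophoblast summed to 15.3 CPM in dividing barcodes of library 2, against 15.4 CPM in the others, and to 9.21 CPM in those of library 1, against 25.3 CPM in the others.

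How far the dividing barcodes were through the cycle was described by 36 S-phase and 56 G2/M genes. The median dividing barcode held 22 S and 112 G2/M UMIs in library 2, and 21 and 104 in library 1. The S genes led in 3 of 152 barcodes of library 2 (1.97%) and 19 of 159 of library 1 (11.9%). Among endothelial barcodes they led in 0 of 79 in library 2 and 6 of 90 in library 1, and among epithelial ones in 1 of 7 and 3 of 21. Since 7 of the 8 rule genes act in mitosis, the choice of barcodes favours the G2/M genes. With the rule genes left out of both lists, the S genes led in 1.97% in library 2 and 13.8% in library 1. These shares depend on a few abundant genes of the G2/M list that also have high levels outside division: in other barcodes STMN1, TUBB4B and CKS2 made up 26.7, 26.6 and 18.6% of the G2/M sum in library 2 and 27.1, 18.7 and 7.73% in library 1. Without these 3 genes the S genes led in 18 dividing barcodes of library 2 (11.8%) and 35 of library 1 (22%). Thinned to 2000 UMIs, the shares with the full lists were 5.92% in library 2 and 9.80% in library 1.

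**Figure D3:**
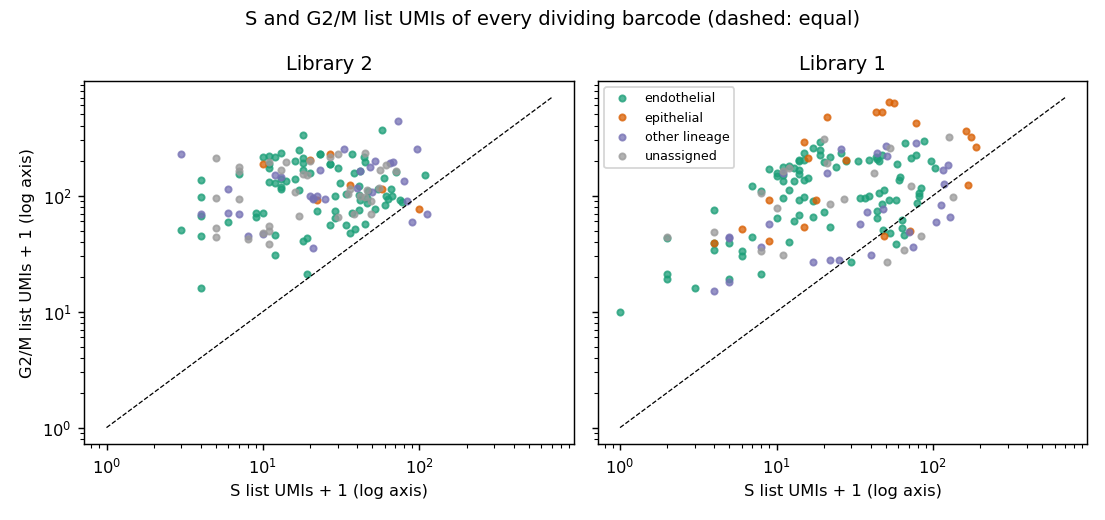
UMIs of the S-phase list (horizontal) and of the G2/M list (vertical) in each dividing barcode of library 2 (left) and library 1 (right), both plus 1 on log axes, coloured by lineage, with the dashed line at equal sums. Of the barcodes, 3 of 152 in library 2 and 19 of 159 in library 1 lie on the S side of the line.

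To see what else accompanied division, dividing barcodes were set against other barcodes of the same lineage and library, where at least 20 were dividing: endothelium in both libraries and epithelium in library 1. Since the rule chose the barcodes in this very contrast, the ratios describe them and no test was made. A gene at least 2-fold apart is called higher or lower. Of all measured genes, 8.3% were higher and 5.44% lower in dividing endothelial barcodes of library 2, 6.77% and 7.98% in those of library 1, and 6.08% and 9.76% in dividing epithelial barcodes of library 1. The medians over all genes were a log2 ratio of 0.06, -0.04 and -0.02. Of the cell cycle genes outside the rule, 99 of 108 were higher in endothelium of library 2 (median log2 ratio 2.83), 95 of 108 in endothelium of library 1 (3.10) and 83 of 98 in epithelium of library 1 (2.17).

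DNA replication genes were higher in dividing barcodes of both lineages. Of the genes that license origins or work at the fork, 28 of 32 were higher in endothelium of library 2, 28 of 32 in endothelium of library 1 and 24 of 28 in epithelium of library 1. PCLAF, which binds the sliding clamp, had 176 CPM in dividing endothelial barcodes of library 2, against 1.77 CPM in the others (log2 ratio 6.64, conditional binomial interval 6.06 to 7.26). The clamp gene PCNA itself had 327 CPM against 84.2 CPM (log2 ratio 1.96), a smaller ratio from a higher level outside division. In endothelium of library 1 PCLAF had 227 CPM in dividing barcodes against 3.05 CPM, and PCNA 333 CPM against 69.9 CPM. In epithelium of library 1 PCLAF had 229 CPM against 4.55 CPM, and PCNA 161 CPM against 28.7 CPM.

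DUT, a nucleotide supply gene whose product removes dUTP, had 227 CPM in dividing against 50.6 CPM in other endothelial barcodes of library 2 (log2 ratio 2.16), and its log2 ratio was 2.57 in endothelium and 1.62 in epithelium of library 1. POLA1, the catalytic subunit of the polymerase that starts DNA strands, was not higher in any of the 3 comparisons. Repair genes that act at forks were higher in 9 of 9, 9 of 9 and 6 of 6. Among them BRIP1, a helicase that partners BRCA1, had 60.2 CPM against 8.55 CPM in endothelium of library 2 (log2 ratio 2.82).

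The mitotic lists of cyclins and kinases, of centromere and kinetochore genes and of spindle genes had the largest median ratios. The rule favours this, since 7 of its 8 genes act in mitosis. Cyclins and kinases were higher in 11 of 11 and 11 of 11 genes in endothelium of libraries 2 and 1, and in 9 of 10 in epithelium of library 1. Centromere and kinetochore genes were higher in 17 of 17, 16 of 17 and 13 of 15, and spindle genes in 15 of 15, 15 of 15 and 14 of 15. BUB1B, a kinase of the spindle checkpoint, had 98.5 CPM in dividing endothelial barcodes of library 2, against 0.550 CPM in the others (log2 ratio 7.49). SGO1, which protects cohesion at centromeres, had 101 CPM in those of library 1, against 0.339 CPM (log2 ratio 8.22, interval 6.82 to 10.13). AURKB, the kinase of the chromosomal passenger complex, had 118 CPM in dividing epithelial barcodes of library 1, against 2.10 CPM (log2 ratio 5.81).

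Genes of the anaphase-promoting complex were mixed. Of 5 measured, 2 were higher in endothelium of library 2, 2 in endothelium of library 1 and 4 in epithelium of library 1. Their median log2 ratios were 0.84, 0.68 and 1.44 in that order. UBE2S, which extends its ubiquitin chains, had 519 CPM against 154 CPM in endothelium of library 2 and 457 CPM against 65.3 CPM in endothelium of library 1, whereas the core subunit genes CDC27 and ANAPC1 were not 2-fold higher in either. FZR1, the activator of the complex in G1, was the 1 gene of these cell cycle lists at least 2-fold lower in dividing endothelial barcodes of library 1, at 5.22 CPM against 10.7 CPM, on 5 UMIs in dividing barcodes (log2 ratio -1.03, interval -2.68 to 0.23). FZR1 was at 0.84 in endothelium of library 2. In epithelium of library 1, FZR1 and ANAPC1 were among the 4 higher genes, and CDC27 was at 0.89. Of the chromosome structure genes, HMGB2, a chromatin protein, had 768 CPM against 83.0 CPM in endothelium of library 2, 1396 CPM against 115 CPM in endothelium of library 1 and 758 CPM against 89.7 CPM in epithelium of library 1. LMNB1, a nuclear lamin, had log2 ratios of 4.60, 5.27 and 3.18 in the same order.

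Groups not tied to S phase or mitosis had a smaller share of higher members. Of the G1 cyclins, CDK inhibitors and exit genes, 4 of 20 were higher in endothelium of library 2, 3 of 20 in endothelium of library 1 and 2 of 19 in epithelium of library 1. These were 20, 15 and 10.5%, against 8.3, 6.77 and 6.08% of all measured genes. Those higher were led by CDKN3, a phosphatase that acts on CDK1, with 196 CPM against 19.8 CPM in endothelium of library 2 and 161 CPM against 5.68 CPM in that of library 1. CDKN2C, an inhibitor of CDK4 and CDK6, had 177 CPM against 26.5 CPM in library 2 and 336 CPM against 57.4 CPM in library 1. CCND2, a G1 cyclin, was lower in endothelium of library 1 (log2 ratio -1.09, interval -1.69 to -0.55).

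Immediate early and stress genes were higher in 0 of 16 in each comparison, with medians of -0.28, -0.27 and -0.06, and JUNB, an AP-1 subunit, was lower in endothelium of library 1, at 39.7 CPM against 90.7 CPM. Steroid and growth factor receptors were higher in 0 of 12, 0 of 12 and 0 of 11, and FGFR2 was lower in endothelium of library 2, on 9 UMIs in dividing barcodes. With 8.3, 6.77 and 6.08% of all measured genes higher, counts of 0 in lists this short lie near that share. They are not read as a trait of either list. The oestrogen receptor gene ESR1 stood at 289 CPM in dividing epithelial barcodes of library 1 and 241 CPM in the others (log2 ratio 0.26), and the progesterone receptor gene PGR at 78.1 and 71.1 CPM (log2 ratio 0.14, interval -0.35 to 0.60). In endothelium ESR1 stood at 67.9 CPM in dividing and 50.6 CPM in other barcodes of library 2, and at 21.9 and 24.8 CPM in library 1.

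**Figure D4:**
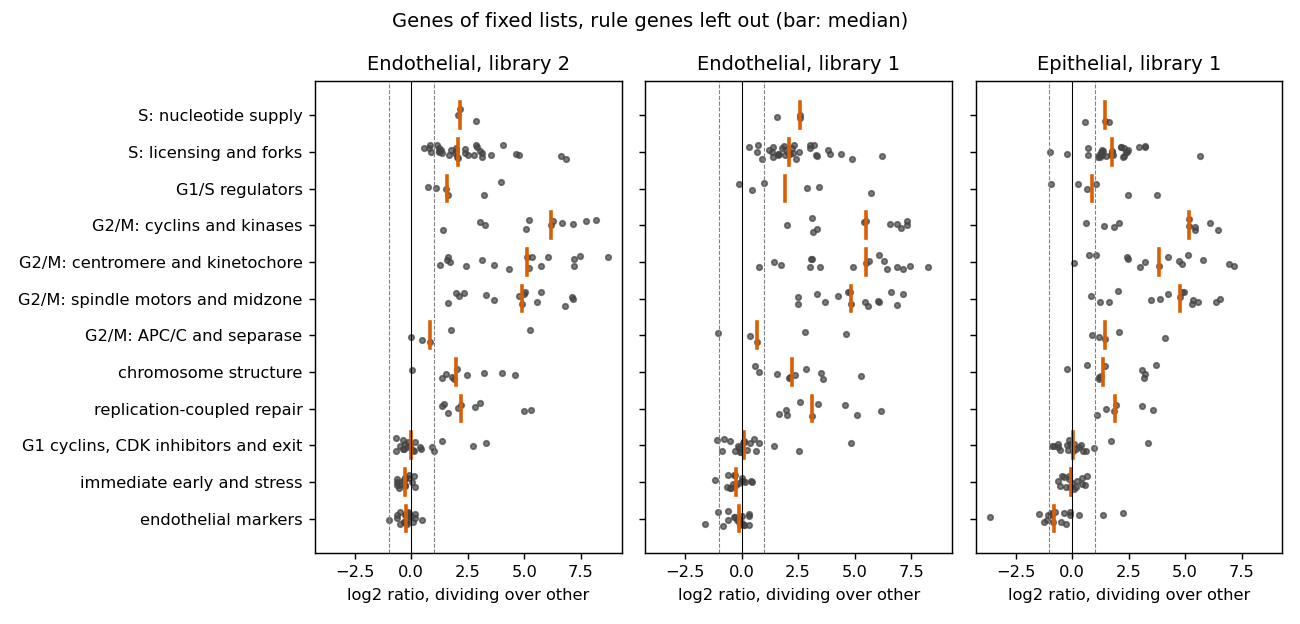
Log2 ratio of dividing over other barcodes for each measured gene of 12 lists, rule genes left out, in endothelium of library 2 (left), endothelium of library 1 (middle) and epithelium of library 1 (right); each point is a gene, the orange bar is the list's median, dashed lines mark 2-fold, and 1 gene with 0 UMIs in other barcodes stands at its lower bound. The replication and mitosis lists lie to the right of the line at 0, and the lists of G1 and exit genes, immediate early genes and, in endothelium, endothelial markers lie around it.

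Dividing endothelial barcodes kept most endothelial markers within 2-fold of other endothelial barcodes: 0 of 20 were higher in library 2 and 0 of 19 in library 1, while 0 and 2 were lower, with medians of -0.22 and -0.12. Of all measured genes, 8.3% were higher and 5.44% lower in library 2, and 6.77% and 7.98% in library 1. The endothelial markers also gave the lineage, which holds them close. Some mark a type of vessel. ACKR1, the chemokine receptor of venules, had 135 CPM in dividing barcodes of library 1, against 410 CPM in the others (log2 ratio -1.61, interval -1.87 to -1.35), and 154 CPM against 195 CPM in library 2 (-0.34, -0.59 to -0.10). SEMA3G, a semaphorin of arteries, had a log2 ratio of -0.97 in library 2 and -0.81 in library 1, and GJA5, the arterial connexin 40, -0.51 and -0.60. APLNR, the apelin receptor, found on veins and sprouting vessels, had 37.2 CPM against 42.8 CPM in library 2 (-0.20) and 150 CPM against 121 CPM in library 1 (0.31). CLDN5, the endothelial tight-junction claudin, had 277 CPM against 573 CPM in library 1 (-1.05) but 479 CPM against 449 CPM in library 2 (0.10).

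Genes outside all lists were compared by ratio where they had at least 100 CPM in the higher group and at least 30 UMIs in the dividing barcodes, or that many expected there, which 1753 genes had in endothelium of library 2 and 1477 in that of library 1. The 5 of these with the highest ratios in dividing endothelial barcodes were the same in both libraries: CDCA3, SHCBP1, PIMREG, AOX1 and MXD3. CDCA3, which promotes mitotic entry, was detected in 50 of 79 dividing endothelial barcodes of library 2 (0.139% of the others) and in 47 of 90 of library 1 (0.503% of the others). SHCBP1, a midbody protein, had 163 CPM against 0.611 CPM in library 2 and 116 CPM against 0.678 CPM in library 1. PIMREG, which acts at metaphase, had 144 CPM against 1.10 CPM and 186 CPM against 0.509 CPM.

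AOX1 encodes an aldehyde oxidase. It had 102.9 CPM in dividing endothelial barcodes of library 2 against 5.19 CPM in the others (log2 ratio 4.31) and 147 CPM against 5.00 CPM in library 1 (4.88). It was detected in 43 of 79 dividing barcodes (54.4%) and 2.64% of the others in library 2, and in 64 of 90 (71.1%) and 1.87% of the others in library 1. In epithelium of library 1 its log2 ratio was 2.61. MXD3, a partner of MAX that is expressed in S phase, had 234 CPM against 13.8 CPM in library 2 and 282 CPM against 15.7 CPM in library 1.

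Among the same 1753 genes of endothelium of library 2, the lowest ratios were those of SAL1 (log2 ratio -1.39), the endothelial Notch receptor NOTCH4 (-1.37), the small heat shock protein CRYAB (-1.35), the G protein subunit GNA14 (-1.26) and complement factor D, CFD, which had 491 CPM in dividing against 1145 CPM in other barcodes (-1.22). SAL1, which encodes a lipocalin, was at 1159 CPM in other epithelial barcodes of library 2, and its ratio in endothelium was -0.65 without called doublets. In library 1, among its 1477 genes, the lowest were those of the fatty acid carrier FABP5 (-2.23), the arterial connexin GJA4 (-1.76), ACKR1, the galectin LGALS3 (-1.58) and osteopontin, SPP1 (-1.25). Of these genes only SPP1 was at least 2-fold lower in both libraries. It was at -1.33 in library 2, under the minimum there, with 9.85 CPM in dividing against 24.8 CPM in other barcodes. Others had the same sign in both libraries but were within 2-fold in one of them. FABP5 was at -0.87 and GJA4 at -0.69 in library 2, and NOTCH4 was at -0.75 and CFD at -0.66 in library 1. LGALS3 was at -0.17 in library 2, and GNA14 at -0.26 and CRYAB at 0.25 in library 1. Counts were small: 1 barcode held 12 of the 40 FABP5 UMIs and 1 held 9 of the 30 GJA4 UMIs of dividing endothelial barcodes.

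In epithelium of library 1 the highest ratios outside the lists, among the 1265 genes over the same minimum, were those of KPNA2, an importin, with 271 CPM in dividing against 18.2 CPM in other barcodes (log2 ratio 3.89), and H2AFZ, the histone variant H2A.Z, with 1261 CPM against 276 CPM (2.19). H2AFZ is on the chromosome structure list under its newer symbol, H2AZ1, and was not counted there. CMC2, GGCT and GPN3 were at 1.70, 1.53 and 1.39. Genes under the minimum could have higher ratios in this epithelium: PIMREG was at 7.00, CDCA3 at 6.47 and MXD3 at 3.60, each at under 100 CPM in dividing barcodes. All 5 were also higher in dividing endothelium, with log2 ratios of 1.24 to 2.10 in library 2 and 1.33 to 3.25 in library 1. Without the barcode of 96646 UMIs, 83 of 98 cell cycle genes were again higher.

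Of the genes lowest in dividing epithelium, NMB and CYP26A1 rested on few of the other barcodes. NMB, the neuropeptide neuromedin B, had 23.3 CPM in dividing against 1073 CPM in other epithelial barcodes of library 1, but it was detected in 9 of 21 dividing and 52 of 185 other barcodes, and 1 of the others held 663 of its 3064 UMIs. CYP26A1, which degrades retinoic acid, had 1 UMI in the 21 dividing barcodes and 598 in the others, where 17 of 185 barcodes held it and 1 barcode held 119 UMIs. The mitochondrial protein gene TSPO had 111 CPM against 567 CPM (log2 ratio -2.35). It was found in 18 of 21 dividing (85.7%) and 125 of 185 other barcodes (67.6%), at median depths of 18549 and 9874 UMIs. One of the others held 209 of its 1619 UMIs. RFK, which makes flavin mononucleotide, and SLC31A2, a copper transporter gene, had log2 ratios of -2.19 and -2.12. They were found in 61.9% and 52.4% of dividing barcodes and in 60% and 47.6% of the others. Among the others, 1 barcode held 148 of the 998 RFK UMIs and 1 held 56 of the 455 SLC31A2 UMIs.

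Dividing endothelial barcodes were numerous enough in both libraries to set library 2 against library 1, though sow, day and library cannot be told apart. Of 10540 measured genes, 21.9% were at least 2-fold higher and 12% at least 2-fold lower in library 2, with a median log2 ratio of 0.00. In other endothelial barcodes the shares were 24.9% and 17.2%. Of the 108 cell cycle genes outside the rule, 10 were higher and 3 lower in library 2. CDK1 was furthest apart, with 333 CPM in library 2 and 64.7 CPM in library 1 (log2 ratio 2.36). It differed in other endothelial barcodes as well, with 8.98 CPM in library 2 and 1.53 CPM in library 1 (2.56). The 3 lower genes all encode chromatin proteins, CBX1 (-2.06), HMGN2 (-1.38) and HMGB1 (-1.01). PCNA stood at 327 CPM in dividing endothelium of library 2 and at 333 CPM in that of library 1.

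Most of the genes furthest apart between the libraries in dividing endothelial barcodes differed the same way in other endothelial barcodes. This held for 8 of the 8 highest in library 2 among the 1953 genes with at least 100 CPM and 30 UMIs in the higher library, a minimum that also holds for the lowest below. RBP4, a retinol carrier, had 382 CPM in dividing endothelial barcodes of library 2 and 1.04 CPM, a single UMI, in those of library 1. UABP-2, a uteroferrin-associated basic protein gene, had 277 CPM in library 2 and 0 UMIs in library 1, and ACP5, the acid phosphatase uteroferrin, had 642 and 8.35 CPM. These 3 are abundant in epithelium of library 2, where other epithelial barcodes had 9610 CPM of RBP4, 6331 CPM of UABP-2 and 16637 CPM of ACP5. Other endothelial barcodes had 589, 373 and 947 CPM in library 2. The part of free epithelial RNA in the endothelial values was not tested.

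Among other barcodes of library 2, KLRF1, CEBPD and LRMDA were highest in endothelium, KDM5B in B cells and AUTS2 in ciliated epithelium. KLRF1, known as a lectin-like receptor of NK cells, had 326 CPM in dividing endothelial barcodes of library 2 and 0 UMIs in those of library 1, at least 6.70 higher on the log2 scale against a floor of 3 UMIs. It was found in 84.8% of dividing endothelial barcodes of library 2, at a median depth of 10001 UMIs, and in 69.9% of the others, at 4540 UMIs, but its level was 326 CPM in dividing and 527 CPM in other barcodes, so no order is read from the shares. KDM5B, a histone demethylase, was at 1797 CPM in library 2 and 36.5 CPM in library 1, and CEBPD, a transcription factor of acute responses, 964 and 16.7 CPM. LRMDA had 855 and 10.4 CPM and AUTS2, a Polycomb-associated protein gene, 373 and 4.18 CPM. From the fixed lists, BTG1, an antiproliferative gene, was at 896 CPM in library 2 and 76.2 CPM in library 1 (log2 ratio 3.56), and the growth factor receptor gene IGF1R 623 and 64.7 CPM (3.27). Both differed the same way in other endothelial barcodes. BTG1 had 1153 CPM there in library 2 and 109 CPM in library 1 (3.41), and IGF1R had 873 and 91.9 CPM.

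At the other end, 7 of the 8 genes lowest in library 2 went the same way in other endothelial barcodes. The chemokine gene CXCL12 stood at 24.1 CPM in dividing endothelium of library 2 and at 236 CPM in that of library 1 (log2 ratio -3.29), with 33.2% of the UMIs of library 1 in 1 barcode. APOE had 25.2 and 182 CPM (-2.85), LGALS1, a galectin, 60.2 and 361 CPM (-2.59), and IGFBP5, an IGF-binding protein, 69.0 and 348 CPM (-2.33). COL3A1, a collagen, had 146 and 748 CPM (-2.36), while other stromal barcodes stood at 6317 CPM in library 2 and 23685 CPM in library 1. The stromal barcodes also had 980 and 2350 CPM of APOE and 1515 and 1962 CPM of IGFBP5 in libraries 2 and 1. Other smooth muscle or pericyte barcodes had 2664 and 4910 CPM of LGALS1. The part of free RNA from these lineages in the endothelial values was not tested. ATP5MD, a subunit of ATP synthase, and RPL22, a ribosomal protein gene, were at -2.32 and -2.27.

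The exception was CXCL10, an interferon-induced chemokine, with 185 CPM in dividing endothelial barcodes of library 2 and 1589 CPM in those of library 1. One barcode of library 1 held 1502 of its 1522 UMIs there. Without that barcode the level in library 1 was 21.5 CPM, and the log2 ratio of library 2 over library 1 was 3.11.

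**Figure D5:**
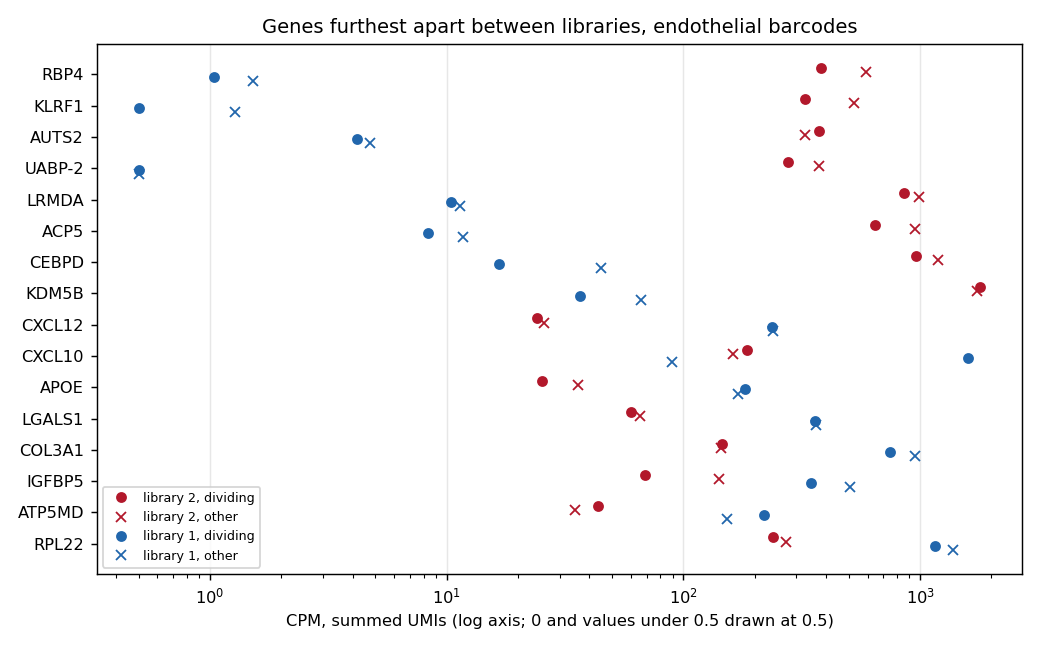
CPM (log axis; 0 and values under 0.5 are drawn at 0.5) of the 8 highest and 8 lowest genes of library 2 over library 1 in dividing endothelial barcodes (dots) and in other endothelial barcodes (crosses), library 2 in red and library 1 in blue. The 2 symbols of a library lie close together for most genes; for CXCL10 in library 1 they stand at 1589 CPM (dividing, 1 barcode holding most) and 89.9 CPM (other).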

How the data were processed

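Tissue was processed per the labels' protocols as given above. The deposited files are filtered gene-by-barcode matrices of raw UMI counts, 1 per library, made by the authors with Cell Ranger: version 6.1.0 per the file headers and 2.1.1 per the submitters' processing notes. The genome build is not given in the sources used here. Of 26881 gene rows, those with a symbol gave 10700 symbols; 50 symbols on several rows were summed, and 0 gene IDs matched the table of gene names given, so rows without a symbol were used by ID only. Reads shared by near-identical genes, such as histones and tubulins, could be split by the counting, and such genes are uncertain.

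All barcodes of the matrices were kept. The members, the gene lists (119 of 197 cell cycle entries have a symbol) and the comparisons were chosen with earlier results of these data known. The lineage score, chosen after the data were seen, takes the CPM of a lineage's summed markers and divides it by the median in clear barcodes of that lineage; a lineage needed 3 UMIs, 2 markers, a score of at least 0.2 and a 2-fold lead. UMIs were summed per library, lineage and group, and their CPM has an exact Poisson interval; ratios have conditional binomial intervals, and genes needed 10 UMIs over both groups. A group at 0 was set to 3 UMIs for a lower bound. With 1 library per group no test was made and no p is given; barcodes of 1 library are not replicates, and intervals cover counting error only. The genes named are the 8 rule genes, the largest ratios of each list, the 5 highest and 5 lowest ratios outside the lists in each lineage and library with at least 20 dividing barcodes (at least 100 CPM where higher and 30 UMIs in the dividing barcodes or expected there), the 8 highest and 8 lowest between libraries (at least 100 CPM where higher and 30 UMIs in the higher), and 7 fixed genes; BTG1, IGF1R, BRIP1, FZR1, FGFR2, CBX1, HMGN2, HMGB1 and the marker genes described were picked from the lists after their values were seen. Doublets were called with Scrublet in scanpy 1.11.5 and kept. Python 3.11.15, NumPy 2.4.6, SciPy 1.17.1, pandas 2.3.3, R 4.3.3 and edgeR 4.0.16 (TMM factors only) were used. The ratios, intervals and lineage calls were checked on simulated data. No sequence is shown, since none of these genes' sequences was among the sources used here. One result on a single gene is not reported here.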

Additional observations from a re-analysis of the deposited data

How the results depend on the processing

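No paired analysis was possible because each group has 1 library, and for the same reason no replicate could be left out. Depth limits the rule. Thinned to 1000 and to 2000 UMIs per barcode, the share of dividing barcodes was 0.191% and 0.524% in library 2 and 0.337% and 0.978% in library 1. Within lineages at 1000 UMIs it was 0.511% (library 2) and 0.719% (library 1) in endothelium, 0% and 0.495% in epithelium, 0% and 0% in stromal fibroblasts, 0% and 1.67% in plasma cells, and 0.125% in smooth muscle or pericytes of library 1. At 2000 UMIs, added after seeing the data, it was 1.35% and 2.23% in endothelium, 0.0312% and 3.76% in epithelium and 0% in plasma cells of both. A minimum of 5 rule genes gave 1.33% in library 1. Without called doublets, library 2 had 0.783% dividing, 69.7% of them endothelial, and 0% of stromal fibroblasts dividing. Lineage by the number of markers detected gave 45.3% endothelial in library 1, 0.658% and 5.03% epithelial in libraries 2 and 1, and, in library 2, 0.0276% of epithelium and 0% of stromal fibroblasts dividing. The share led by S genes was 5.92% in library 2 at 2000 UMIs, and 11.8% and 22% in libraries 2 and 1 without STMN1, TUBB4B and CKS2 (added after seeing the data). Between libraries, thinning to 1000 UMIs left 3769 measured genes, fewer by its construction, with 930 higher and 603 lower in dividing endothelium of library 2. CXCL10 turned to 3.11 (log2) without its richest barcode, which holds nearly all of its UMIs in library 1 (added after seeing the data). The causes of the other changes were not tested. Of the values of single genes, 165 kept their size within counting error under the alternatives run and 20 moved with the same sign. The 1 that changed sign was that of CXCL10 above. Of the shares and counts, 79 kept theirs and 33 moved. TMM scaling moved the log2 ratios between libraries by 0.0019.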
